A study of Homo sapiens with 8 samples.

Results

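The genes described here are 9 classical transcriptional targets of the tumour suppressor p53: MDM2, GADD45A, BAX, BBC3, PMAIP1, FAS, TP53I3, SESN1 and GDF15. They were taken by symbol from the 23391 genes of the count table, and all 9 were listed there. CDKN1A, which encodes the cyclin dependent kinase inhibitor p21 and is itself a p53 target, was followed beside them. The question was whether other p53 targets changed as CDKN1A did over the 4 conditions of the study. The cells were DU145, a human prostate cancer line that carries mutant p53.

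Normal p53 is a transcription factor that is kept low by the ubiquitin ligase MDM2 and is stabilised by DNA damage and other stress. It then binds pairs of half-sites near its target genes, whose products arrest the cell cycle, repair DNA, adjust metabolism or start apoptosis. Many of these genes are also reached by other transcription factors, so a change of their mRNA does not by itself show which factor acted.

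Each group held 2 libraries. DU145-pc3.1 was a pool of cells stably transfected with the empty vector pcDNA3.1-zeo (+), and DU145-Esrrb was a pool that carried the same vector with Esrrb, the nuclear receptor estrogen related receptor β. Both pools had been selected for 3 weeks in 150 μg/ml zeocin, so every library came from a drug-selected pool and not from a clone. Either pool was left untreated or received 3 μM DY131, a synthetic ligand of Esrrb, in medium with charcoal-stripped serum. The duration is not given in the sources used here. The design text of the series names vehicle for the cells without DY131, which are called untreated here.

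Counts per library summed to between 7858743 and 11551690. Both libraries of DU145-Esrrb+DY131 (7858743 and 9054498) lay below all others. Counts on ESRRB, the expressed transgene, were 104 and 99 in DU145-Esrrb, 105 and 143 in DU145-Esrrb with DY131, and at most 3 in the libraries of the empty vector. The epithelial markers EPCAM, CDH1, KRT8, KRT18 and KRT19 were all expressed, whereas the prostate luminal marker TMPRSS2 had 4 counts over the 8 libraries and KLK3 had none. The other cell types the cultures could hold left little trace, with 39 counts or fewer in all on each of PECAM1, CDH5, VWF, PTPRC, CD3E, COL1A2, DCN and LUM. COL1A1 lay between 2.74 and 5.70 cpm. The 2 libraries of DU145-pc3.1+DY131 differed more from each other (chi-square per degree of freedom of 7.30) than those of the other groups (1.29 to 2.67). In the comparisons with DU145-Esrrb+DY131 the log2 fold changes over all genes fell with the share of a transcript's 50-base windows that span an exon junction (Spearman's rho across 13666 genes of -0.37 for DY131 in DU145-Esrrb, -0.47 for Esrrb in DY131-treated cells and -0.46 for the interaction). Results of the members are therefore also given with an offset for this share where it changed them.

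Levels are given in cpm, counts scaled to a common library size after TMM normalization. Fold changes come from edgeR's quasi-likelihood F test in a model of all 8 libraries, with p-values adjusted by the Benjamini-Hochberg method over the 13856 genes that reached 1 cpm in 2 or more libraries, and a gene passed the test at an adjusted p under 0.05. Of the 9 targets 8 were tested, and GDF15 lay below the filter. With 2 libraries a group, the p-values rest on the spread between these libraries, which edgeR moderates for each gene with that of all genes. The paper calls the libraries of a group biological replicates, but the labels do not say whether they came from separate cultures. In RNA from whole cultures, fewer cells that express a gene and less mRNA per cell cannot be told apart.

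**Figure D1:**
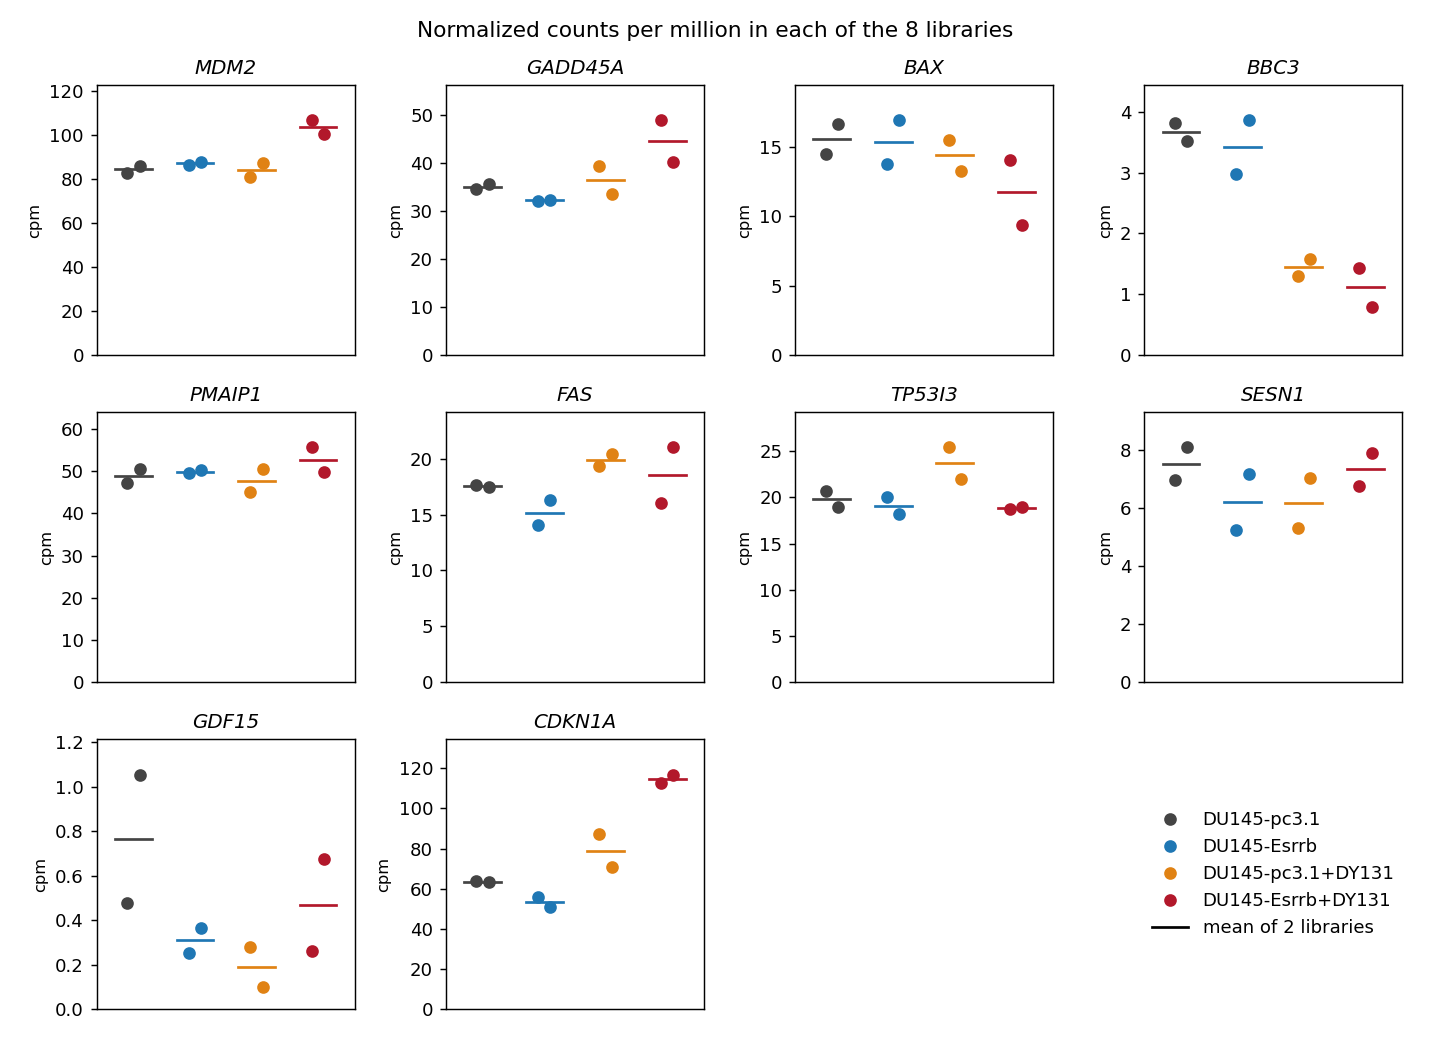
Normalized cpm (vertical axes, each starting at 0) of the 9 p53 targets and CDKN1A in each library, with the 2 libraries of a group as points and their mean as a bar. BBC3 was at 2.97 to 3.86 cpm in the 4 untreated libraries and at 0.791 to 1.59 cpm in the 4 treated ones, whereas MDM2, GADD45A and CDKN1A were highest in DU145-Esrrb+DY131.

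The levels per length differed widely among the targets in untreated DU145-pc3.1 cells. On the scale of cpm per kilobase of transcript, GADD45A was at 38.8 ± 0.806, TP53I3 at 26.6 ± 1.60, PMAIP1 at 25.0 ± 1.20 and BAX at 11.5 ± 1.11 (SD, n = 2). FAS followed at 6.84 ± 0.0606, MDM2 at 6.67 ± 0.195, SESN1 at 2.81 ± 0.300, BBC3 at 2.01 ± 0.114 and GDF15 at 0.639 ± 0.341. TP53I3 and PMAIP1 did not differ beyond their spread, nor did FAS and MDM2. With the longest annotated transcript in place of the listed one, GADD45A came to 23.4, just under PMAIP1, and TP53I3 came to 9.93, under BAX.

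The promoters show what sequence the targets share near their starts. RefSeq promoters on GRCh38.p14, each holding 250 bases before and 50 bases after a transcript start, were at hand for 8 of the 9 targets and for CDKN1A, in 16 windows. They were searched on both strands for AAGGTCA, the core of the estrogen related receptor response element, and for the p53 half-site. Only exact matches to either pattern were counted, with no mismatch allowed. The core was found in 1 window, that of an internal start of MDM2, where it occupies the first bases at position -250. A second MDM2 window that begins 7 bases further on does not hold it. The core was present in 3.92% of all 35116 promoters. The half-site was found in 1 of the windows of FAS, at position -122, and in 1 of the windows of SESN1, at position -49, and was present in 6.63% of all promoters. Neither was found in the windows of CDKN1A or BBC3, and no half-site was found in those of MDM2. This says only that exact matches are not in those bases. Sites with mismatches were not searched for, so a window without a match can still hold one.

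The 250 bases before the start are printed for the targets whose mRNA changed most and for the windows with a match, with the matched bases in capitals, 5′ to 3′ on the strand of the gene.
CDKN1A (chr6:36678464-36678713, + strand): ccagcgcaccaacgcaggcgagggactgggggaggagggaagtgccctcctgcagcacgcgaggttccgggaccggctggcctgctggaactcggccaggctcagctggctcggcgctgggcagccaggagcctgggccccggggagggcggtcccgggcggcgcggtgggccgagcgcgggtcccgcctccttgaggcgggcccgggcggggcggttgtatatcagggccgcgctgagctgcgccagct
BBC3 (chr19:47232668-47232917, - strand): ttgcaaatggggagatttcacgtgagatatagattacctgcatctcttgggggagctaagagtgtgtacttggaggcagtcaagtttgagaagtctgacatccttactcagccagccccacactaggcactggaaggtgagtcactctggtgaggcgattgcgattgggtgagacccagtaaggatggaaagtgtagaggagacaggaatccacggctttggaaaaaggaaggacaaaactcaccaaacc
MDM2 (chr12:68808767-68809016, + strand, AAGGTCA core): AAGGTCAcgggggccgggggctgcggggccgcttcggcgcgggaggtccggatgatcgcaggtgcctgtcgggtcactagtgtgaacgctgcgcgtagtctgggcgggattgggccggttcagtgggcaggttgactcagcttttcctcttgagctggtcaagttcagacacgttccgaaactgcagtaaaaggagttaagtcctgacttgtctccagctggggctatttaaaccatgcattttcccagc
FAS (chr10:88991181-88991430, + strand, p53 half-site): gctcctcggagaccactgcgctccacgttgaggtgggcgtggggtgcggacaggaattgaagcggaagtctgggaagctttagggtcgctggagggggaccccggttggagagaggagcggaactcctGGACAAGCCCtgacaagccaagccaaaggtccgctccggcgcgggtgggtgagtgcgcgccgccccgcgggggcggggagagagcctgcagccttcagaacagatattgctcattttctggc
SESN1 (chr6:109008989-109009238, - strand, p53 half-site): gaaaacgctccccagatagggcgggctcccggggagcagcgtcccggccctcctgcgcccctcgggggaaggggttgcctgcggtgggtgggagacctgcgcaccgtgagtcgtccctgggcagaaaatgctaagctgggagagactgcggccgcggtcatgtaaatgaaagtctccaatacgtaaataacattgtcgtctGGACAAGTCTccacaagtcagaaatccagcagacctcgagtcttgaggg

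CDKN1A gave the pattern to compare with. It was at 63.7 and 63.3 cpm in DU145-pc3.1, 56.1 and 51.2 cpm in DU145-Esrrb, 87.4 and 70.8 cpm in DU145-pc3.1+DY131 and 113 and 117 cpm in DU145-Esrrb+DY131. The treated libraries all lay above the untreated ones, and both treated libraries of DU145-Esrrb lay above all others. With DY131 CDKN1A rose by 1.10 ± 0.09 (log2, SE) in DU145-Esrrb, which is 2.14-fold (edgeR adjusted p = 7.13e-08), and by 0.32 ± 0.09 in DU145-pc3.1 (edgeR adjusted p = 0.0100). The second of these rises depended on single libraries: without DU145-pc3.1+DY131 replicate 1 it was 0.17 (edgeR adjusted p = 0.0917). Without DU145-pc3.1 replicate 1 or 2 the edgeR adjusted p was 0.0520 and 0.0600. The 2 effects of DY131 differed by 0.78 ± 0.13 (log2, SE, edgeR adjusted p = 0.000260 for the interaction). Esrrb without DY131 gave -0.24 for CDKN1A (95% interval -0.44 to -0.05, edgeR adjusted p = 0.175). This difference passed with the 4 compared libraries alone (edgeR adjusted p = 0.0329) and without DU145-pc3.1+DY131 replicate 1 or 2 (edgeR adjusted p of 0.0164 and 0.0147).

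Among the targets, BBC3 moved most, and it moved the other way from CDKN1A. BBC3 encodes PUMA, a BH3-only protein that triggers mitochondrial apoptosis, and lies on chromosome 19 of GRCh38 from 47220822 to 47232766 (GENCODE 29). It was at 3.81 and 3.52 cpm in DU145-pc3.1, 2.97 and 3.86 cpm in DU145-Esrrb, 1.31 and 1.59 cpm in DU145-pc3.1+DY131 and 1.43 and 0.791 cpm in DU145-Esrrb+DY131. All 4 treated libraries lay below all 4 untreated libraries, and the pools overlapped within each treatment. With DY131 it fell by 1.34 on the log2 scale in DU145-pc3.1 (SE 0.31, edgeR adjusted p = 0.00294), a level 0.396 times that of untreated cells. In DU145-Esrrb it fell by 1.63 (SE 0.35, edgeR adjusted p = 0.000902), to 0.323 times the untreated level. The difference between these effects was -0.29, with a 95% interval from -1.33 to 0.75 that leaves room for a sizeable difference either way. The treated libraries held between 7 and 16 counts on BBC3, which limits the precision. Both falls passed the test in each of the 19 and 17 alternative settings in which BBC3 was tested.

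The other apoptotic targets did not pass the test with DY131. BAX, a pore-forming protein of the mitochondrial outer membrane, was at 13.7 and 16.9 cpm in DU145-Esrrb and at 14.1 and 9.37 cpm in DU145-Esrrb+DY131. One treated library lay below the untreated pair and the other between them, and the log2 fold change was -0.40 (95% interval -0.78 to -0.02, edgeR adjusted p = 0.0675). BAX did pass in 7 of the alternatives, among them the fit of the 4 compared libraries alone (-0.41, edgeR adjusted p = 0.0191). The value rested on single libraries, since it was -0.71 without DU145-Esrrb+DY131 replicate a (edgeR adjusted p = 0.0131), -0.12 without replicate b of that group (edgeR adjusted p = 0.637) and -0.24 without DU145-Esrrb replicate 2 (edgeR adjusted p = 0.363). PMAIP1, which encodes the BH3-only protein NOXA, lay between 45.0 and 55.6 cpm in all 8 libraries, and the groups of both DY131 comparisons overlapped. Its log2 fold change with DY131 was -0.03 in DU145-pc3.1 (95% interval -0.21 to 0.15) and 0.08 in DU145-Esrrb (95% interval -0.10 to 0.26). With the length and GC offset the second was 0.21 and passed (edgeR adjusted p = 0.0276). For Esrrb in DY131-treated cells PMAIP1 passed with that offset (0.22, edgeR adjusted p = 0.0281) and without DU145-pc3.1+DY131 replicate 2 (0.22, edgeR adjusted p = 0.0445).

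FAS, a death receptor at the cell surface, was at 17.6 and 17.4 cpm in DU145-pc3.1 and at 19.3 and 20.4 cpm in DU145-pc3.1+DY131. It was at 14.1 and 16.3 cpm in DU145-Esrrb and at 16.0 and 21.0 cpm in DU145-Esrrb+DY131. The first pair of groups did not overlap and the second did. The log2 fold changes with DY131 were 0.18 (95% interval -0.10 to 0.46, edgeR adjusted p = 0.297) and 0.30 (95% interval 0.0047 to 0.59, edgeR adjusted p = 0.0751). In DU145-Esrrb FAS passed with the exon junction offset (0.36, edgeR adjusted p = 0.0358), without DU145-Esrrb+DY131 replicate a (0.47, edgeR adjusted p = 0.0197) and in 4 further alternatives, whereas without replicate b of that group it was 0.08 (edgeR adjusted p = 0.707) and without DU145-Esrrb replicate 1 it was 0.19 (edgeR adjusted p = 0.369).

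MDM2 and GADD45A were the targets that passed the test in the direction of CDKN1A. FAS, at 0.18 in DU145-pc3.1 and 0.30 in DU145-Esrrb with DY131, had the same sign and did not pass. MDM2, the ubiquitin ligase that degrades p53, lies on chromosome 12 from 68808176 to 68850686. It was at 82.5 and 86.0 cpm in DU145-pc3.1, 86.2 and 87.8 cpm in DU145-Esrrb, 80.8 and 86.9 cpm in DU145-pc3.1+DY131 and 107 and 100.1 cpm in DU145-Esrrb+DY131. The treated DU145-Esrrb libraries lay above all others, and the other groups spanned 80.8 to 87.8 cpm. MDM2 rose by 0.25 ± 0.07 (log2, SE) with DY131 in DU145-Esrrb (edgeR adjusted p = 0.00504) and was 0.30 ± 0.07 higher in DU145-Esrrb than in DU145-pc3.1 under DY131 (edgeR adjusted p = 0.00173). In DU145-pc3.1 the log2 fold change with DY131 was -0.01 (95% interval -0.15 to 0.14). Both changes lost the test with the exon junction offset (0.12 and 0.13, edgeR adjusted p of 0.168 and 0.161). The first was also lost without DU145-Esrrb+DY131 replicate a (0.20, edgeR adjusted p = 0.0680) and with the length and GC offset (0.15, edgeR adjusted p = 0.0674). MDM2 shares 12% of its 50-base windows with a neighbouring transcript, AC025423.4.

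GADD45A, which encodes a stress protein of growth arrest and DNA repair, lies on chromosome 1 from 67685061 to 67688338. It was at 34.5 and 35.5 cpm in DU145-pc3.1, 32.0 and 32.3 cpm in DU145-Esrrb, 39.2 and 33.6 cpm in DU145-pc3.1+DY131 and 48.8 and 40.1 cpm in DU145-Esrrb+DY131. Again the treated DU145-Esrrb libraries lay above all others. GADD45A rose by 0.46 ± 0.10 (log2, SE) with DY131 in DU145-Esrrb (edgeR adjusted p = 0.00129), and this change passed in all 18 alternative settings. Its log2 fold change in DU145-pc3.1 was 0.06 (95% interval -0.16 to 0.28, edgeR adjusted p = 0.699), and with the length and GC offset 0.29 (edgeR adjusted p = 0.0271). Under DY131, GADD45A was 0.28 ± 0.10 higher in DU145-Esrrb than in DU145-pc3.1 (edgeR adjusted p = 0.0328). This was lost in 8 of 18 alternatives, among them the exon junction offset (0.22, edgeR adjusted p = 0.0995). The value was 0.14 without DU145-Esrrb+DY131 replicate a, 0.17 without DU145-pc3.1+DY131 replicate 2 and 0.27 without DU145-pc3.1 replicate 1.

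**Figure D2:**
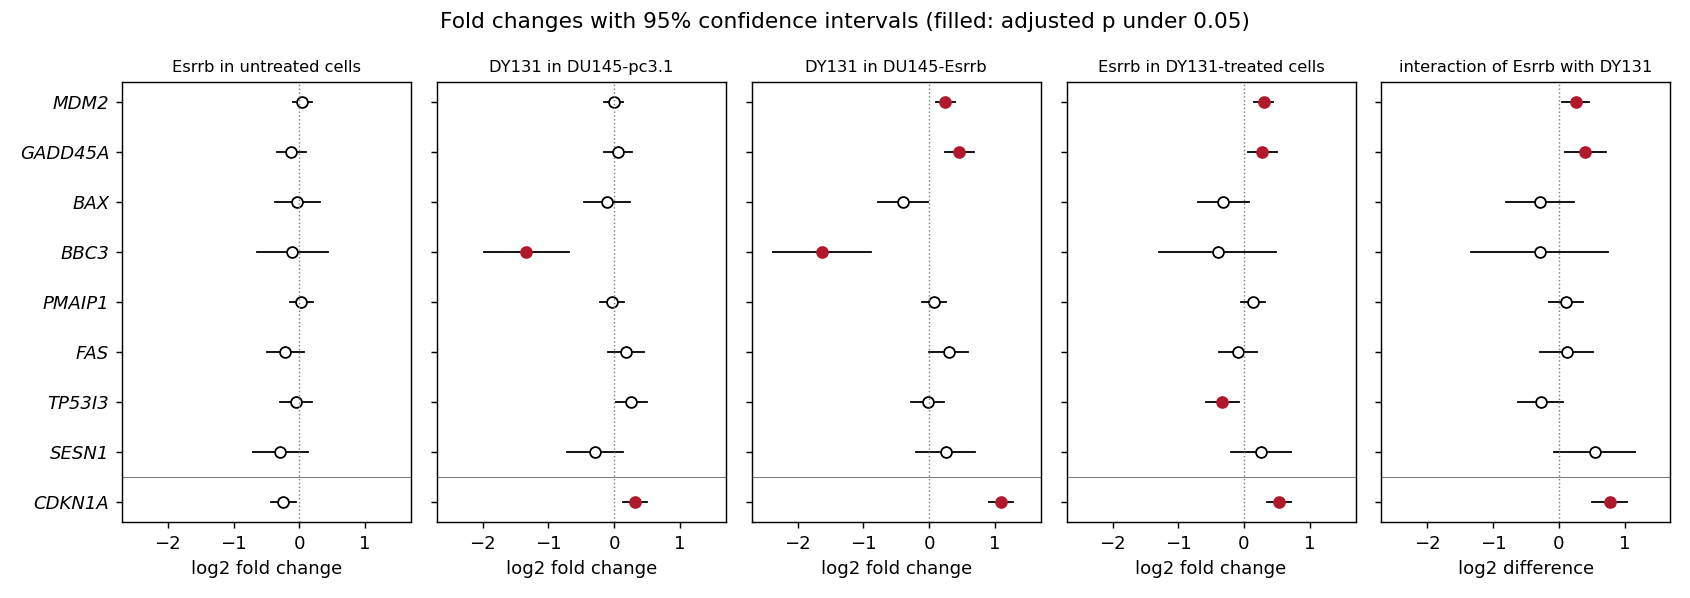
Log2 fold changes (horizontal axes) of the 8 tested targets and CDKN1A in the 5 comparisons, with 95% confidence intervals as lines and filled points for an adjusted p under 0.05. Beside BBC3 at -1.34 and -1.63 with DY131, the targets stayed within 0.54 of 0, while CDKN1A reached 1.10.

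The metabolic and stress targets showed smaller differences. TP53I3, an oxidoreductase also named PIG3, was at 20.7 and 19.0 cpm in DU145-pc3.1, 20.0 and 18.2 cpm in DU145-Esrrb, 25.4 and 22.0 cpm in DU145-pc3.1+DY131 and 18.8 and 19.0 cpm in DU145-Esrrb+DY131. The treated empty-vector libraries lay above all others. Under DY131 TP53I3 was lower in DU145-Esrrb than in DU145-pc3.1, with a log2 fold change of -0.33 ± 0.12 (SE, edgeR adjusted p = 0.0281). This was lost in 6 of 18 alternatives, with the exon junction offset (-0.18, edgeR adjusted p = 0.235), with the length and GC offset (-0.05, edgeR adjusted p = 0.750), with DESeq2 (-0.33, adjusted p = 0.132), without DU145-pc3.1+DY131 replicate 1 (-0.23, edgeR adjusted p = 0.143), and without DU145-Esrrb+DY131 replicate a or b (edgeR adjusted p of 0.111 and 0.107). Of its windows 21.1% span an exon junction, the largest share among the targets. With DY131 in DU145-pc3.1 it was at 0.26 (95% interval 0.02 to 0.50, edgeR adjusted p = 0.0797), which passed without DU145-pc3.1+DY131 replicate 2 (0.36, edgeR adjusted p = 0.0170) and with both offsets.

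SESN1, a sestrin that acts against oxidative stress and mTORC1, was at 6.96 and 8.09 cpm in DU145-pc3.1, 5.26 and 7.17 cpm in DU145-Esrrb, 5.32 and 7.04 cpm in DU145-pc3.1+DY131 and 6.77 and 7.91 cpm in DU145-Esrrb+DY131. The groups overlapped in all 4 pairwise comparisons, and none passed the test. Its interaction was 0.54 (95% interval -0.08 to 1.16, edgeR adjusted p = 0.166), and it passed without DU145-pc3.1+DY131 replicate 2 (0.76, edgeR adjusted p = 0.0451). GDF15, a secreted cytokine of the TGF-β family, had 5 and 12 counts in DU145-pc3.1, 3 and 4 in DU145-Esrrb, 3 and 1 in DU145-pc3.1+DY131, and 2 and 6 in DU145-Esrrb+DY131. Summed over 2 libraries, this is 0.778 cpm in DU145-pc3.1 (exact 95% Poisson interval 0.453 to 1.25) and 0.192 cpm in DU145-pc3.1+DY131 (0.0524 to 0.492). It is 0.309 cpm in DU145-Esrrb (0.124 to 0.636) and 0.484 cpm in DU145-Esrrb+DY131 (0.209 to 0.954), and the intervals cover counting error only. Without the filter on low counts GDF15 was tested, and its log2 fold change with DY131 was -1.95 in DU145-pc3.1 (95% interval -3.63 to -0.27, edgeR adjusted p = 0.0728) and 0.62 in DU145-Esrrb (95% interval -1.12 to 2.37, edgeR adjusted p = 0.605). The interaction was 2.57 (95% interval 0.10 to 5.04, edgeR adjusted p = 0.121). None of its 5 comparisons passed in that fit, and the intervals leave room for large changes.

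Counted together, 0 of the 8 tested targets passed the test for Esrrb in untreated cells, where 4.17% of all genes did. edgeR's exact test and DESeq2 gave 0 as well, and 0 targets had an unadjusted p under 0.05. For DY131 in DU145-pc3.1 1 of 8 passed (BBC3, down), against 37.4% of all genes, and 18.5% of all genes passed and were lower. For DY131 in DU145-Esrrb 3 of 8 passed, against 58.7% of all genes. These were MDM2 and GADD45A among the 29.2% that rose and BBC3 among the 29.5% that fell. For Esrrb in DY131-treated cells 3 of 8 passed, against 50.4% of all genes, with MDM2 and GADD45A up (25.1% of all genes) and TP53I3 down (25.3%). In each of these comparisons the share of the targets lay below that of all genes, and with 8 targets the counts cannot tell such shares apart.

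For the interaction 2 of 8 targets passed, against 33.7% of all genes. Both were up, as were 16.1% of all genes. They were GADD45A at 0.41 ± 0.15 (log2, SE, edgeR adjusted p = 0.0431) and MDM2 at 0.25 ± 0.10 (edgeR adjusted p = 0.0499). Neither held firmly, since GADD45A was lost in 10 and MDM2 in 13 of 16 alternatives, including DESeq2, the exon junction offset and the omission of any of several libraries. The median log2 fold change of the 8 targets was -0.08 for Esrrb in untreated cells, -0.02 for DY131 in DU145-pc3.1, 0.16 for DY131 in DU145-Esrrb, 0.02 for Esrrb in DY131-treated cells and 0.11 for the interaction, while the medians of all genes lay between 0.00 and 0.01 in size. With the added demand of a log2 fold change of 1 or more in size, BBC3 was the only target left, with DY131 in either pool. The background shares under both demands were 4.19% for DY131 in DU145-pc3.1 and 12% in DU145-Esrrb, and 0.577%, 8.21% and 6.28% for Esrrb in untreated cells, Esrrb in DY131-treated cells and the interaction.

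The likeness to CDKN1A was measured over the 4 conditions as the root mean square difference between the group means of log2 cpm, each gene centred on its own mean. A gene with no change at all would lie at 0.41 from CDKN1A, and the median of the 13855 other tested genes was 0.45. GADD45A was nearest among the targets, at 0.25, which is rank 1625 of 13855. MDM2 at 0.32 (rank 3485), FAS at 0.33 (rank 3774), SESN1 at 0.38 (rank 4994) and PMAIP1 at 0.38 (rank 5122) were somewhat nearer than a flat profile. TP53I3 at 0.43 (rank 6433) and BAX at 0.58 (rank 9618) were farther than it, and BBC3 at 1.14 (rank 13349) was among the genes least like CDKN1A.

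The 5 genes nearest to CDKN1A among those whose profile spans at least 0.5 were STAG3L2 at 0.03, NBPF1 at 0.03, ASB16 at 0.04, FLJ45340 at 0.04 and LOC100288615 at 0.05, each over the same 4 group means of 2 libraries. None is among the targets or the wider lists. STAG3L2 and NBPF1 have near-identical copies elsewhere in the genome, so their counts are uncertain.

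**Figure D3:**
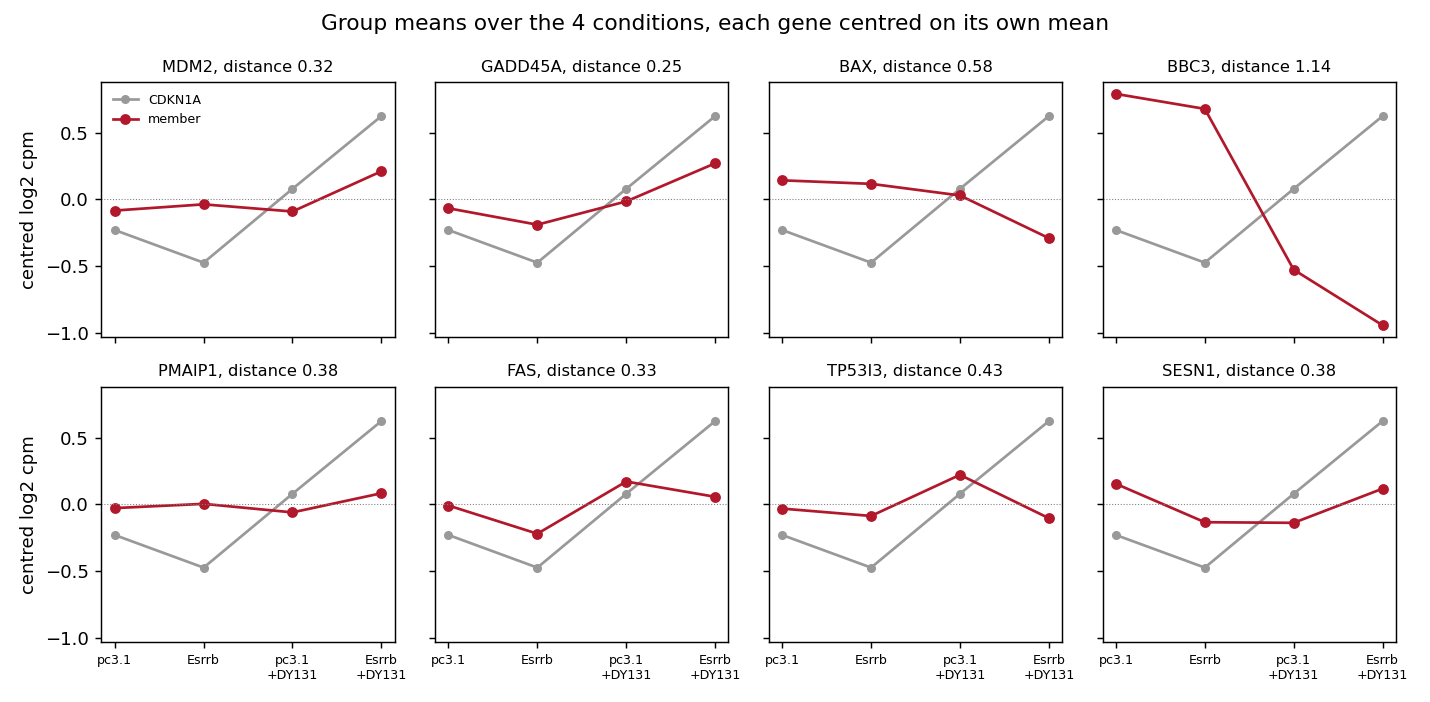
Group means of log2 cpm over the 4 conditions (vertical axis, centred on each gene's own mean) for each tested target in red and for CDKN1A in grey. GADD45A, at a distance of 0.25, and MDM2, at 0.32, rise in the last condition as CDKN1A does but by less, and BBC3, at 1.14, runs the other way.

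A wider set of 77 other p53 targets in 6 lists by function, CDKN1A included, was read in the same way, and 71 of them were tested. For Esrrb in untreated cells 4 passed (1 up, 3 down). With DY131 35 passed in DU145-pc3.1 (14 up, 21 down) and 45 in DU145-Esrrb (24 up, 21 down). For Esrrb in DY131-treated cells 31 passed (20 up, 11 down), and for the interaction 23 (14 up, 9 down). These are 5.63%, 49.3%, 63.4%, 43.7% and 32.4% of the tested genes of the lists, beside 4.17%, 37.4%, 58.7%, 50.4% and 33.7% of all genes, which are the background for the single lists too, and the medians of the lists together lay between -0.03 and 0.09. Other p53 targets therefore went both ways in every comparison, with 1 gene up for Esrrb in untreated cells. All genes did so too, with 4043 up and 4084 down for DY131 in DU145-Esrrb, so this is not particular to p53 targets.

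Among 8 cell cycle targets, with DY131 2 rose and 2 fell in DU145-pc3.1 and 3 rose and 2 fell in DU145-Esrrb, or 50% and 62.5% against 37.4% and 58.7% of all genes. CDKN1A at 1.10, GTSE1, a microtubule protein that restrains p53, at 0.64 and SFN, the 14-3-3σ protein, at 0.49 rose in DU145-Esrrb. CCNG2, an unconventional cyclin, fell in both pools (-1.35 in DU145-pc3.1 and -0.86 in DU145-Esrrb). SFN was at -0.17 and GTSE1 at 0.48 in DU145-pc3.1, both past the test. PLK2, a polo-like kinase, fell with DY131 in DU145-Esrrb (-0.64) and was lower with Esrrb in untreated (-0.80) and in treated cells (-1.61). It was the only 1 of these 8 to pass for Esrrb in untreated cells. Under DY131 SFN and CDKN1A were higher with Esrrb, at 0.67 and 0.54.

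Of 14 tested apoptosis targets, 3 rose and 2 fell with DY131 in DU145-pc3.1 (35.7% passed, against 37.4% of all genes), and 5 rose and 2 fell in DU145-Esrrb (50%, against 58.7%). AEN, a nuclease of apoptotic DNA breakdown, rose by 0.45 and 0.97, and TNFRSF10A, a TRAIL receptor, by 0.53 in DU145-pc3.1, where EI24, an endoplasmic reticulum protein, was up by 0.21. In DU145-Esrrb the TRAIL receptor gene TNFRSF10B rose by 0.62 and BLCAP by 0.57. TP53INP1, a cofactor of stress responses and autophagy, fell in both pools (-1.21 and -0.86). The decoy receptor gene TNFRSF10C fell as well (-0.83 and -0.997), but it shares 38.3% of its windows with other genes and is uncertain. With Esrrb the decoy receptor gene TNFRSF10D was higher in untreated (0.28) and treated cells (0.63), and AIFM2, a ferroptosis suppressor, was lower (-0.34 and -0.23). BLCAP at 0.62 and AEN at 0.55 were higher with Esrrb under DY131, where 5 rose and 1 fell.

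Of 8 DNA repair targets, 4 rose and 2 fell with DY131 in DU145-pc3.1 (75.0% passed, against 37.4% of all genes), and 3 rose and 1 fell in DU145-Esrrb (50%, against 58.7%). With DESeq2 4 and 1 of the 8 passed. ASCC3, a helicase, rose by 0.54 and 0.50 and REV3L, the catalytic subunit of polymerase ζ, by 0.53 and 0.28. POLH, a translesion polymerase, rose by 0.27 and 0.26. DDB2, a sensor of ultraviolet damage, fell in both pools (-0.48 and -0.31), and XPC fell in DU145-pc3.1 (-0.34), though 28.6% of its windows are shared. With Esrrb POLK was lower in untreated cells (-0.35) and in treated cells (-0.60), where PCNA (-0.34) was lower and DDB2 (0.29) higher, giving 1 up and 2 down.

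Of 16 tested metabolic targets, 1 rose and 9 fell with DY131 in DU145-pc3.1, and 3 rose and 7 fell in DU145-Esrrb, while 18.5% and 29.5% of all genes fell. In all 62.5% of the list passed in either pool, against 37.4% and 58.7% of all genes, and the medians were -0.27 and -0.18 beside 0.00 for all genes. The numbers past the test depended on the method. With edgeR's exact test 10 and 9 of the 16 passed, and with DESeq2 3 and 6. Of all 13856 genes 3498 and 6479 passed with DESeq2. CPT1C, a neuronal-type carnitine palmitoyltransferase, fell in both pools (-1.20 and -1.52). SESN2, a sestrin like SESN1, fell in DU145-pc3.1 (-0.71). FDXR, the ferredoxin reductase of mitochondrial electron transfer, and FUCA1, a lysosomal fucosidase, fell in DU145-Esrrb (-1.27 and -1.02). GLS2, a mitochondrial glutaminase, was at -0.84 in DU145-pc3.1, but 55.9% of its windows are shared with other genes, the largest part with SPRYD4. The rises were smaller, with DRAM1, an autophagy regulator, at 0.20 and 0.22 and GPX1, a glutathione peroxidase, at 0.21 in DU145-Esrrb. C12orf5 (TIGAR) was at 0.23 there and shares 61.9% of its windows. GPX1 shares 21.5%, the largest part with GPX1P1, so both are uncertain. For Esrrb in untreated cells 0 of 16 passed with edgeR's quasi-likelihood test, 1 with edgeR's exact test and 0 with DESeq2, and 4 had an unadjusted p under 0.05. Under DY131 4 were higher with Esrrb, led by GPX1 (0.46), SESN2 (0.40) and C12orf5 (0.26), and 2 lower, FDXR (-0.63) and NTPCR (-0.57).

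Of 11 tested targets that are secreted or lie at the surface, 3 rose and 1 fell with DY131 in DU145-pc3.1 (36.4% passed, against 37.4% of all genes), and 5 rose and 3 fell in DU145-Esrrb (72.7%, against 58.7%). THBS1, the matrix protein thrombospondin 1, rose by 0.92 and 0.45, and TGFA, a ligand of the EGF receptor, by 0.24 and 0.57. EPHA2, an ephrin receptor, rose by 0.15 in DU145-pc3.1 and KITLG, the ligand of KIT, by 0.63 in DU145-Esrrb. NINJ1, a membrane rupture protein, fell in both pools (-1.06 and -0.50), and ITGA3 (-0.43) and PLXNB2 (-0.43) fell in DU145-Esrrb. For Esrrb in untreated cells 0 of 11 passed by edgeR's quasi-likelihood test, edgeR's exact test and DESeq2, and 2 had an unadjusted p under 0.05. Under DY131 NINJ1 (0.47), KITLG (0.38) and TGFA (0.33) were higher with Esrrb and 4 genes were lower, led by CD82 (-0.86), THBS1 (-0.58) and PLXNB2 (-0.46).

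Of 14 tested feedback and other targets, 1 rose and 5 fell with DY131 in DU145-pc3.1 (42.9% passed, against 37.4% of all genes), and 5 rose and 6 fell in DU145-Esrrb (78.6%, against 58.7%). STEAP3, a metalloreductase, rose by 0.37 and 0.53. PPM1D, the phosphatase WIP1 that switches p53 signalling off, rose by 0.48 and ZMAT3, an RNA-binding protein, by 0.30 in DU145-Esrrb. DDIT4, an inhibitor of mTORC1, fell by 1.55 in DU145-pc3.1. Of its windows 44.1% are shared with other genes, the largest part with its antisense gene DDIT4-AS1. There the strands cannot be told apart if counting ignored strand. ANKRA2 (-0.76 and -1.16) and TP53TG1 (-0.70 and -1.04, 28.9% shared windows) fell in both pools and CYFIP2 (-1.18) in DU145-Esrrb. For Esrrb in untreated cells 0 of 14 passed by the same 3 tests, with 2 at an unadjusted p under 0.05. Under DY131 TP53I11 (0.87), DDIT4 (0.58) and IER5 (0.33) led 5 genes that were higher with Esrrb, and CYFIP2 (-0.58) was lower.

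**Figure D4:**
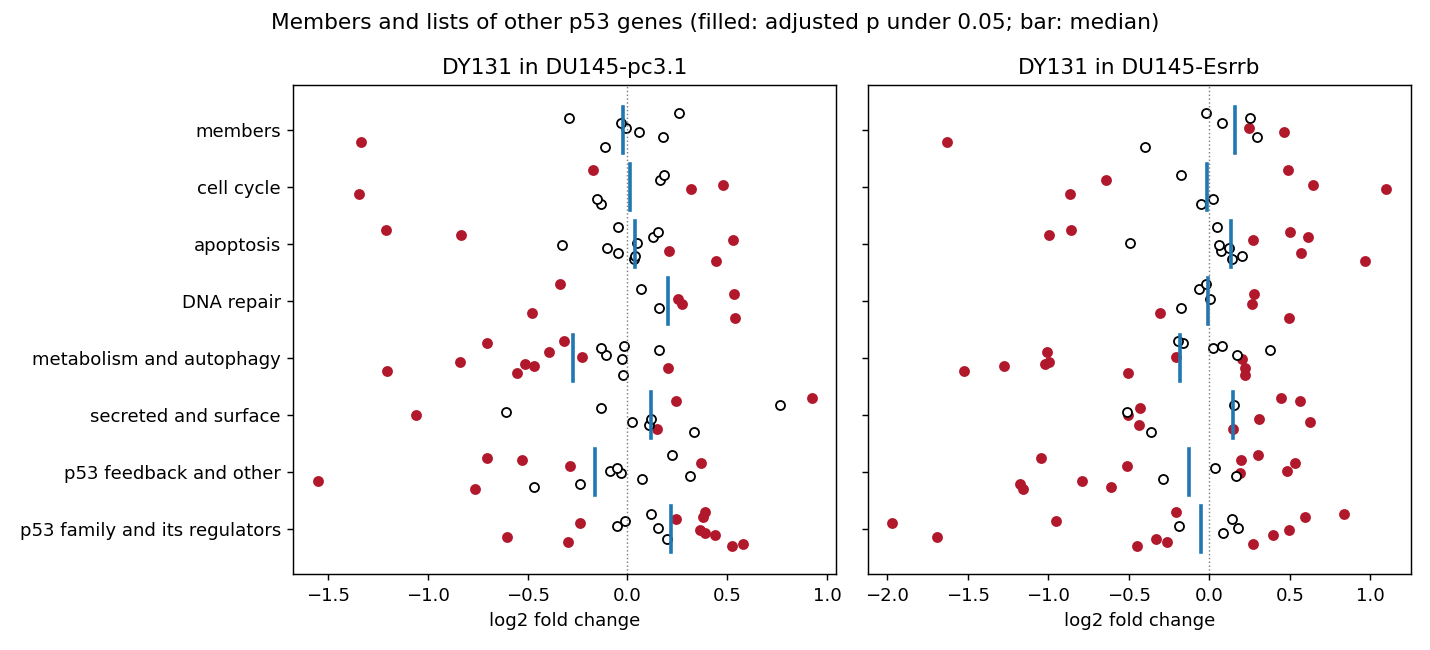
Log2 fold changes with DY131 (horizontal axes) of the tested targets, of 6 lists of other p53 targets and of relatives and regulators of p53, in DU145-pc3.1 on the left and DU145-Esrrb on the right. Each point is a gene, filled at an adjusted p under 0.05, and the bar is the median of the list, which lay at -0.27 and -0.18 for metabolism and autophagy.

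Upstream of the targets, 16 of 17 listed relatives and regulators of p53 were tested. For Esrrb in untreated cells 0 of 16 passed by edgeR's quasi-likelihood test, edgeR's exact test and DESeq2, and 1 had an unadjusted p under 0.05. With DY131 8 rose and 3 fell in DU145-pc3.1 (68.8% passed, against 37.4% of all genes), led by the damage kinases ATR (0.58) and ATM (0.52) and the acetyltransferase CREBBP (0.44), and by CHEK2 (-0.60), CDKN2A (-0.30) and RPL11 (-0.24). In DU145-Esrrb 5 rose and 7 fell (75.0%, against 58.7%). TP73, a relative of p53, rose by 0.84, TP53BP2 by 0.60 and the kinase HIPK2 by 0.50. RPL11, a ribosomal protein that binds MDM2, fell most (-1.97), followed by the checkpoint kinase CHEK2 (-1.69) and RPL5 (-0.95), though 33.1% of the windows of RPL5 are shared with copies such as RPL5P34. Under DY131 HIPK2 (0.26) and CDKN2A (0.19) were higher with Esrrb and 7 genes were lower, led by RPL11 (-1.84), RPL5 (-1.06) and CHEK2 (-0.98). These 3 genes have 22.7%, 35.0% and 38.2% of their windows across exon junctions. With the exon junction offset the log2 fold changes with DY131 in DU145-Esrrb were -1.76 for RPL11, -0.41 for RPL5 and -1.03 for CHEK2, all still past the test.

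With the offset other changes of the wider lists named above no longer passed the test. For DY131 in DU145-Esrrb these were TP73, GPX1, DRAM1, C12orf5, ZMAT3, DDB2 and PLXNB2, with log2 fold changes of 0.79, 0.07, 0.12, 0.13, 0.18, -0.07 and -0.11. TP73 moved little, from 0.84 (edgeR adjusted p = 0.0418) to 0.79 (edgeR adjusted p = 0.0575). In DY131-treated cells, the changes with Esrrb that no longer passed were those of CHEK2 (-0.36), CDKN2A (0.06), PCNA (-0.16), FDXR (-0.26), C12orf5 (0.13), CD82 (-0.07), PLXNB2 (-0.17), KITLG (0.25), IER5 (0.18) and CYFIP2 (-0.40). In DU145-pc3.1 SFN was lost as well (-0.10). The changes of CDKN1A past the test passed with the offset too, and its interaction was then 0.61 (edgeR adjusted p = 0.00211).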

How the data were processed

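RNA of 8 libraries, 2 for each of 4 groups, was sequenced single-end (50 bases) from TruSeq stranded mRNA libraries. Trimming with the FASTX-Toolkit and mapping to hg18 with TopHat2 were done by the authors, who then assigned reads to genes with MULTICOM-MAP, and the deposited values are raw counts per gene, whole numbers without normalization. How strand and reads with several matches were treated is not given in the sources used here, so overlapping and duplicated genes are uncertain. Every column with values was matched to a group by its name, 0 were left over, and both columns of DU145-Esrrb+DY131 carry 1 heading, so these libraries are named a and b. No row lacked a gene name, and 28 symbols had been turned into dates. Columns of the authors' own comparisons were not used.

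The 9 targets and all gene lists were chosen with earlier results of these data known. Named in full were the targets and CDKN1A. Some genes of the lists are not reported here, and the counts of the lists leave them out. From each list the text names the 3 largest rises and the 3 largest falls past the test in each comparison, and it names the 5 genes nearest to CDKN1A.

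The 13856 genes that reached 1 cpm in 2 or more libraries were normalized by TMM and tested with edgeR 4.0.16 (R 4.3.3) in 1 model of 4 groups, by the quasi-likelihood F test with Benjamini-Hochberg adjustment. The 5 comparisons share libraries. The log2 cpm of the profiles used a prior count of 0.5. The test was first run on simulated counts with known changes. Alternatives were edgeR's exact test, DESeq2 1.42.0 and its size factors, library totals, other filters, fewer libraries, the replicate block, a fold threshold, and offsets for transcript length and GC content or for exon junctions from GENCODE 29 on GRCh38 (available for 98.63% of the tested genes). Positions are on GRCh38, not on hg18. Promoters are those of RefSeq on GRCh38.p14. Figures were drawn with matplotlib 3.10.9 in Python 3.11.15.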

Additional observations from a re-analysis of the deposited data

Results flagged for a closer look

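The effect of DY131 differed between the pools, by the interaction term of edgeR's quasi-likelihood test at an adjusted p under 0.05, for the following genes. Each value is the log2 effect in DU145-Esrrb minus that in DU145-pc3.1.

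Among the classical targets these were GADD45A (0.41, adjusted p = 0.0431, with log2 fold changes of 0.46 in DU145-Esrrb and 0.06 in DU145-pc3.1) and MDM2 (0.25, adjusted p = 0.0499, with 0.25 and -0.01). Beside them stood CDKN1A (0.78, with 1.10 and 0.32).

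In the wider lists the difference was upward for SFN (0.66), BLCAP (0.62), AEN (0.52), TNFRSF10B (0.49), XPC (0.32), SESN2 (0.55), KITLG (0.61), NINJ1 (0.56), TGFA (0.32), DDIT4 (0.76), TP53I11 (0.73) and PPM1D (0.57). NINJ1 and DDIT4 fell less in DU145-Esrrb, at -0.50 and -0.79 beside -1.06 and -1.55, and SESN2 was at -0.16 there, which did not pass, beside -0.71. The difference was downward for PLK2 (-0.81), PCNA (-0.33), FDXR (-0.81), NTPCR (-0.61), FUCA1 (-0.51), ITGA3 (-0.54), THBS1 (-0.47), PLXNB2 (-0.30), CYFIP2 (-0.94), RPL11 (-1.73), CHEK2 (-1.09) and ATM (-0.97). ATM was at 0.52 in DU145-pc3.1 and at -0.45 in DU145-Esrrb. Across 13666 genes, the interaction fell with the share of windows across exon junctions (Spearman's rho of -0.46). With the exon junction offset 18 of these 27 differences still passed, and GADD45A (0.34), MDM2 (0.09), PPM1D (0.40), SESN2 (0.52), PCNA (-0.16), FDXR (-0.45), FUCA1 (-0.44), PLXNB2 (-0.01) and CHEK2 (-0.48) did not.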

How the results depend on the processing

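With 2 libraries a group and 7 to 42 counts on BBC3 per library, only large changes of the low genes could be found, and GDF15 was tested only without the filter on low counts. Of the log2 fold changes of the 8 tested targets and CDKN1A under other settings, 418 of 463 kept their direction and side of the threshold, 21 no longer passed, 13 newly passed and 11 changed sign. When 1 library was left out, 309 of 360 kept both, 23 no longer passed, 13 newly passed and 15 changed sign. The causes were not tested.

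The number of targets past the test was 0 for Esrrb in untreated cells in all settings. For DY131 in DU145-pc3.1 it was 1, and it became 0 with 10 counts required in every library, which leaves BBC3 untested, 4 with the length and GC offset, 2 with the exon junction offset and 1 to 2 without 1 library (2 without DU145-pc3.1+DY131 replicate 2). For DY131 in DU145-Esrrb it was 3, and it became 1 with the fold threshold, 5 with the 4 compared libraries alone, 5 with the length and GC offset, and 3 to 5 without 1 library (5 without either DU145-pc3.1+DY131 library). For Esrrb in DY131-treated cells it was 3, and it became 0 with the fold threshold, 1 with DESeq2 and 0 with the exon junction offset. For the interaction it was 2, and it became 0 with the fold threshold, DESeq2, library totals alone, 10 counts in every library and the exon junction offset, 1 with DESeq2's size factors and with no filter on low counts, and 0 to 2 without 1 library (0 without either untreated DU145-pc3.1 library, either untreated DU145-Esrrb library or DU145-Esrrb+DY131 replicate a, and 1 without DU145-pc3.1+DY131 replicate 1 or DU145-Esrrb+DY131 replicate b).

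The number of other p53 targets past the test was 4 for Esrrb in untreated cells, and it became 0 with the fold threshold, 2 with DESeq2, 9 with the 4 compared libraries alone, 2 in the 6 numbered libraries without a block and 1 to 13 without 1 library (13 without either DU145-pc3.1+DY131 library, 1 to 2 without any other). For DY131 in DU145-pc3.1 it was 35, and it became 5 with the fold threshold, 22 with DESeq2 and 20 to 38 without 1 library (20 without DU145-pc3.1 replicate 1). For DY131 in DU145-Esrrb it was 45, and it became 8 with the fold threshold. In the treated cells it was 31 with Esrrb, and it became 1 with the fold threshold. For the interaction it was 23, and it became 0 with the fold threshold and 15 to 30 without 1 library (15 without DU145-Esrrb replicate 1).

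The following changes of sign came with settings other than the omission of 1 library. For DY131 in DU145-pc3.1, MDM2 became 0.00672 with the 4 compared libraries alone and 0.0331 with the exon junction offset, PMAIP1 became 0.0223 with the length and GC offset and 0.0157 with the exon junction offset, and BAX became 0.10 with the length and GC offset. For DY131 in DU145-Esrrb, PMAIP1 became -0.0390 with the exon junction offset, and TP53I3 became 0.16 with that offset and 0.45 with the length and GC offset, where it passed the test (edgeR adjusted p = 0.00268). For Esrrb in DY131-treated cells, PMAIP1 became -0.0267 with the exon junction offset, and FAS 0.00187 with the length and GC offset. In the interaction PMAIP1 became -0.0547 with the exon junction offset. MDM2, at -0.01 for DY131 in DU145-pc3.1, was at -0.26 with the length and GC offset and then passed (edgeR adjusted p = 0.00698).

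Without 1 library, values that changed sign ranged as follows. For Esrrb in untreated cells, BBC3 ranged from -0.30 to 0.0754, PMAIP1 from -0.0165 to 0.0805, TP53I3 from -0.12 to 0.0135 and BAX from -0.18 to 0.12. For DY131 in DU145-pc3.1, MDM2 ranged from -0.0608 to 0.0556, PMAIP1 from -0.12 to 0.0585 and GADD45A from -0.0501 to 0.16. For DY131 in DU145-Esrrb, TP53I3 ranged from -0.085 to 0.0526. For Esrrb in DY131-treated cells, FAS ranged from -0.31 to 0.0807. In the interaction, BBC3 ranged from -0.75 to 0.0961 and FAS from -0.0996 to 0.29.

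The replicate numbers are known for 6 libraries. These numbers are those of the sample titles, and the column headings number some of these libraries differently. Deviations of same-numbered libraries correlated at 0.075 between DU145-pc3.1 and DU145-Esrrb and at 0.028 between DU145-pc3.1 and DU145-pc3.1+DY131. Nothing in the labels ties a number to a shared culture or day, so whether same-numbered libraries share more than the number is not known. With the replicate block in these 6 libraries, 0 targets passed for Esrrb in untreated cells and 1 for DY131 in DU145-pc3.1, as without it, and the other p53 targets gave 3 and 34, against 2 and 32 without it. Of all 13753 genes, 397 and 4900 passed with the block and 370 and 4762 without it. The other 3 comparisons hold libraries without a number.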
